A study of Mus musculus with 8 samples.

Results

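The 7 genes described here stand for the adenosine and secreted arms of suppression by regulatory T cells (Tregs). They are the ectoenzyme genes Nt5e and Entpd1, the adenosine receptor gene Adora2a, the adenosine deaminase gene Ada, and the secreted suppressors Il10, Ebi3 and Fgl2. They were chosen by gene symbol, 7 of the 55487 genes in each table, and all 7 were found and passed the filter on low values in both. The 8 libraries were made from Tregs of the spleens of C57BL/6 mice with the SMART-Seq v4 kit, which amplifies full-length cDNA from little RNA. They fall into 4 groups of 2: SRC-3KO tumor-bearing, control tumor-bearing, SRC-3KO without a tumor and control without a tumor. SRC-3 is the nuclear receptor coactivator encoded by Ncoa3.

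Both SRC-3KO tumor libraries and both tumor controls were sorted for GFP, and the titles of these controls name Foxp3-Cre, a recombinase driven from the Treg gene Foxp3. Without a tumor, both SRC-3KO libraries were sorted for GFP and their titles carry the word Tam1, with a meaning not given in the sources used here. Were it a treatment, its part could not be told apart from that of the genotype. Of the controls without a tumor, replicate 1 is titled WT and its source label does not name GFP, and replicate 2 is titled Foxp3-Cre and was sorted for GFP. Not given in the sources used here are the way SRC-3 was deleted, the kind of tumor, ages and whether replicates were separate animals. The p-values therefore measure only the spread between these libraries, which may be technical. The tumor libraries are in FPKM (fragments scaled to transcript length and library size) and the others in counts, given below as CPM (counts scaled to library size). The tables were normalized separately, so neither tumor against no tumor nor the difference between their fold changes was tested.

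Adenosine is made outside cells in steps. CD39, the product of Entpd1, takes phosphates off ATP and ADP, and CD73, the product of Nt5e, turns the AMP that remains into adenosine. Adenosine acts on T cells mainly through the receptor encoded by Adora2a, which raises cAMP, and adenosine deaminase, encoded by Ada, removes adenosine by turning it into inosine. IL-10 is a cytokine that quiets macrophages, dendritic cells and T cells. Ebi3 is a chain of IL-27 (with Il27) and of IL-35 (with Il12a). Fgl2 is a fibrinogen-like protein that Tregs can secrete and that binds Fc receptors, among them the inhibitory one encoded by Fcgr2b.

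The CD73 gene Nt5e was higher in both SRC-3KO than in both control libraries, with a tumor and without one, the only member to be so in both tables. The difference did not pass the test over all genes in either table. Of all genes tested, 27.5% were higher in both SRC-3KO libraries with a tumor and 23.8% without one. The share that was higher in both tables was not counted. Without a tumor Entpd1, Il10 and Fgl2 were also higher in both SRC-3KO libraries, and with a tumor Ada was. Adora2a and Ebi3 without a tumor, and Entpd1, Fgl2 and Adora2a with one, were highest in 1 control library, and their direction or size rested on it.

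Promoter windows of 3 members are shown because these had the largest log2 fold changes above 0 without a tumor. Each window runs from 250 bases before to 50 bases after a RefSeq start (GRCm38.p6, the mm10 build), 5′ to 3′ on the gene's own strand. RefSeq entries matched 5 of the 7 members, all but Adora2a and Il10. Capitals mark matches to motifs.
Nt5e, chr9:88327359-88327658, plus strand: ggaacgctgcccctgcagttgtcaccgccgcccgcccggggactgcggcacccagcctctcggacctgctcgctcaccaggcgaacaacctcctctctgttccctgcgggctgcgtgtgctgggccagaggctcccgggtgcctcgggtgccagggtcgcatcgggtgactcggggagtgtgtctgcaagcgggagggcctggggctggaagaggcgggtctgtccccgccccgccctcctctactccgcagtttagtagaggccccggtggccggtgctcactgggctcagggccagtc
Entpd1, chr19:40612116-40612415, plus strand: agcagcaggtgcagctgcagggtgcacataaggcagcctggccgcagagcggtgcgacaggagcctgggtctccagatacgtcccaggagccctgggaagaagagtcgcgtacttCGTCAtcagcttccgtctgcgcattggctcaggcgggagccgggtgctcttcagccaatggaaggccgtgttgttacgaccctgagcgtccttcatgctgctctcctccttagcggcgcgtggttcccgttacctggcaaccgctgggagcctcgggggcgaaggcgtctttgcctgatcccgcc
Fgl2, chr5:21372423-21372722, plus strand: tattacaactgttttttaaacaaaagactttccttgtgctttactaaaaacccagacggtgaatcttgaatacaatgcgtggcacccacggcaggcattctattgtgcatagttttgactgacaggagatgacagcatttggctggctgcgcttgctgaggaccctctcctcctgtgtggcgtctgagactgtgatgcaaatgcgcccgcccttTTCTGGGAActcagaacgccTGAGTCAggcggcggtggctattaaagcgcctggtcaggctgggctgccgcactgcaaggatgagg
The motifs were searched on both strands in 32851 RefSeq windows of this length. They were the cAMP response element TGACGTCA (in 1.79% of windows) and its shorter form TGACG (20.8%), which factors of the CREB family bind, and AP-1 TGAGTCA (5.2%). The others were the forkhead motif GTAAACA (3.65%), the nuclear receptor half-site AGGTCA (16.3%) and the STAT motif TTCNNNGAA (8.3%). A full cAMP response element also holds the shorter form, and no other pair of these motifs overlaps by definition. The Entpd1 window held TGACG on the opposite strand, at position -135 from the start, printed as CGTCA. The Fgl2 window held the STAT form TTCTGGGAA at position -36 and TGAGTCA at -16. Of the windows not printed, a second Entpd1 window held TGACG at position -183 and the Ada window TTCCGGGAA at -90. In the Nt5e and Ebi3 windows these letters were not found.

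The ectoenzyme genes come first. Nt5e (ENSMUSG00000032420, mm10 chromosome 9, 88327197 to 88372092, plus strand, 9 exons in its longest transcript) stood at 60.7 and 42.7 FPKM in SRC-3KO tumor libraries, against 33.5 and 28.6 FPKM in tumor controls. Both SRC-3KO libraries lay above both controls, at means of 51.7 ± 12.8 FPKM in SRC-3KO Tregs and 31.05 ± 3.43 FPKM in control (SD, n = 2 each). The log2 fold change on the log2(FPKM + 1) scale was 0.70 (SE 0.24, 95% interval 0.10 to 1.30), with an unadjusted p of 0.0294 and an adjusted p of 0.261 by limma. It was the only member at an unadjusted p under 0.05, where 16.5% of all genes were.

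Without a tumor Nt5e stood at 36.7 and 18.5 CPM in SRC-3KO Tregs, against 3.62 and 9.19 CPM in control. These values rest on 1012 and 525 counts in SRC-3KO Tregs and 91 and 241 counts in control. On the log2 scale the fold change was 2.11 (SE 0.92, 95% interval -0.15 to 4.36), with an unadjusted p of 0.0626 and an adjusted p of 0.910 by edgeR's quasi-likelihood test. Nt5e lay above 0 in all 12 alternatives run with a tumor (0.45 to 0.95) and all 10 without one (1.24 to 2.92). It was called in 1 of them, without control replicate 2 of the no-tumor libraries, at a log2 fold change of 2.92. Nt5e was not alone there, since Entpd1 was also called higher (2.14), and Adora2a (-3.89) and Ebi3 (-3.17) were called lower. That fit called 43.8% of all genes, and its only control was the library titled WT.

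Pan T cell genes split between the no-tumor libraries. Summed over 7 such genes, these libraries held 8829 and 8604 CPM in SRC-3KO Tregs, against 3341 and 5788 CPM in control. Cd2 stood at 4758 and 4382 CPM in SRC-3KO Tregs, against 249.3 and 2758 CPM in control. It was the largest part of the sum in all libraries but the one titled WT, where Cd3e was (1603 CPM). Cd3d and Cd3g were also higher in both SRC-3KO libraries. Cd4 was lower in both (41.8 and 55.7 CPM, against 91.8 and 61.6 CPM in control), and Cd3e, Cd5 and Lck overlapped, so the sum is a scale set mostly by a few genes. In these bulk libraries fewer cells of a type and less RNA per cell cannot be told apart. Per 1000 units of that T cell sum, Nt5e stood at 4.16 and 2.15 in SRC-3KO Tregs and at 1.08 and 1.59 in control without a tumor. The same ratio with a tumor was 21.9 and 17.5 in SRC-3KO Tregs and 9.57 and 12.8 in control. The groups did not overlap on this scale in either table.

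Entpd1 (ENSMUSG00000048120, chromosome 19, 40612366 to 40741602, plus strand) stood at 8.82 and 7.48 FPKM in SRC-3KO tumor libraries, against 5.61 and 14.1 FPKM in tumor controls. The controls lay on either side of both SRC-3KO libraries. Its log2 fold change was -0.13 (SE 0.42, 95% interval -1.19 to 0.92, limma adjusted p = 0.888), and the sign turned to 0.46 without control replicate 2 and to 0.10 with TPM scaling. Without a tumor, Entpd1 levels were 9.69 and 8.76 CPM in SRC-3KO Tregs, against 2.07 and 7.13 CPM in control. That log2 fold change was 1.0 (SE 1.04, 95% interval -1.54 to 3.54, edgeR adjusted p = 0.910). Leaving out control replicate 1 gave 0.27, and leaving out control replicate 2 gave 2.14, with the library titled WT as the only control. Per 1000 units of the T cell sum it no longer separated the groups, at 1.10 and 1.02 in SRC-3KO Tregs and 0.62 and 1.23 in control.

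**Figure D1:**
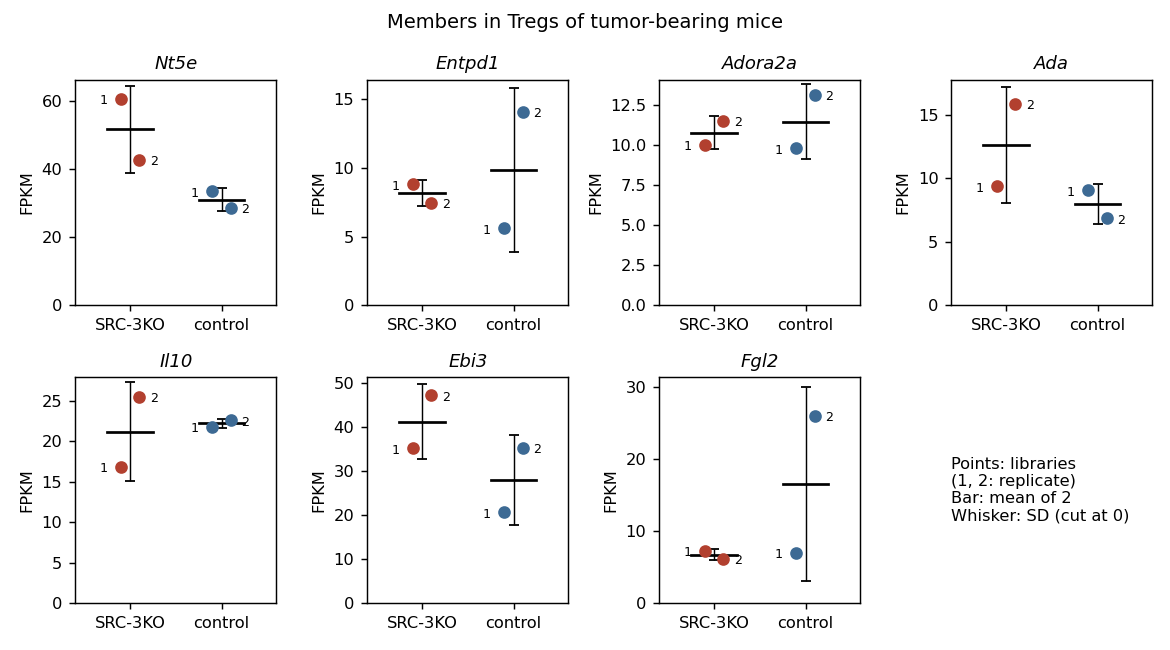
FPKM of each member in the tumor libraries, SRC-3KO left and control right, with points numbered by replicate, bars at the mean of 2 and whiskers at the SD. For Nt5e the SRC-3KO libraries (60.7 and 42.7 FPKM) lie above the controls (33.5 and 28.6 FPKM), and for Fgl2 control replicate 2 stands apart at 26.1 FPKM.

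For the receptor gene the groups overlapped in both tables, and for the gene of the enzyme that removes adenosine in 1 of them. Adora2a (ENSMUSG00000020178, chromosome 10, 75316877 to 75334784, plus strand) stood at 10.02 and 11.51 FPKM in SRC-3KO tumor libraries, against 9.78 and 13.1 FPKM in tumor controls. The SRC-3KO values lay between those of the controls, with a log2 fold change of -0.07 (SE 0.23, 95% interval -0.66 to 0.51, limma adjusted p = 0.888). The sign turned under 4 of 12 alternatives, to at most 0.16 with TPM scaling. Without a tumor Adora2a stood at 1.81 and 2.36 CPM in SRC-3KO Tregs, against 30.5 and 0.458 CPM in control. The library titled WT held 768 counts, and the other control 12 counts. The log2 fold change of -2.89 (SE 1.76, edgeR adjusted p = 0.910) became 2.07 without the library titled WT, so its direction rests on that library. With that library as the only control, the log2 fold change of Adora2a was -3.89.

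Ada (ENSMUSG00000017697, chromosome 2, 163726584 to 163750239, minus strand) stood at 9.39 and 15.9 FPKM in SRC-3KO tumor libraries, against 9.07 and 6.85 FPKM in tumor controls. The groups did not overlap, though SRC-3KO replicate 1 lay close to control replicate 1. Its log2 fold change was 0.58 (SE 0.31, 95% interval -0.20 to 1.36, limma adjusted p = 0.398), above 0 in all 12 alternatives (0.22 to 0.93). Without a tumor Ada stood at 42.4 and 52.3 CPM in SRC-3KO Tregs, against 43.7 and 39.3 CPM in control. Those groups overlapped, with a log2 fold change of 0.19 (SE 0.71, 95% interval -1.55 to 1.93, edgeR adjusted p = 0.948). Scaled to the T cell sum, it was -0.87 instead.

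Among the secreted suppressors, Il10 (ENSMUSG00000016529, chromosome 1, 131019845 to 131024974, plus strand) stood at 16.9 and 25.5 FPKM in SRC-3KO tumor libraries, against 21.8 and 22.6 FPKM in tumor controls. The SRC-3KO libraries lay on either side of the controls. Its log2 fold change was -0.09 (SE 0.25, 95% interval -0.72 to 0.53, limma adjusted p = 0.862), and its sign turned under 4 of 12 alternatives. Without a tumor Il10 stood at 15.0 and 9.46 CPM in SRC-3KO Tregs, against 8.50 and 8.62 CPM in control. Both SRC-3KO libraries were higher, replicate 2 by little. That log2 fold change was 0.51 (SE 0.84, 95% interval -1.54 to 2.57, edgeR adjusted p = 0.914), and -0.53 when scaled to the T cell sum.

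Ebi3 (ENSMUSG00000003206, chromosome 17, 55952640 to 55957022, plus strand) stood at 35.2 and 47.1 FPKM in SRC-3KO tumor libraries, against 20.6 and 35.2 FPKM in tumor controls. SRC-3KO replicate 1 and control replicate 2 were level, so the groups just overlapped. The log2 fold change was 0.58 (SE 0.31, 95% interval -0.21 to 1.36, limma adjusted p = 0.399), above 0 in all 12 alternatives (0.21 to 0.95). It was called without control replicate 2 (0.95, adjusted p = 0.0476, against 0.0476 to 0.996 over the alternatives), in a fit that called 20.1% of all genes. Without a tumor Ebi3 stood at 13.9 and 11.4 CPM in SRC-3KO Tregs, against 113 and 11.3 CPM in control. The high value is again that of the library titled WT, and the other control was level with the SRC-3KO libraries. The log2 fold change of -2.29 (SE 1.18, 95% interval -5.19 to 0.60, edgeR adjusted p = 0.910) was 0.07 without that library and -3.17 with it as the only control.

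The partners of Ebi3 were near 0 in most libraries. Il12a, its partner in IL-35, stood at 0 and 0.0898 FPKM in SRC-3KO tumor libraries, against 0.0537 and 11.6 FPKM in tumor controls. Without a tumor, Il12a was at 0 and 0 CPM in SRC-3KO Tregs, against 3.69 and 0 CPM in control. Il27, its partner in IL-27, stood at 0 and 0.117 FPKM in SRC-3KO Tregs, against 0 and 2.82 FPKM in control with a tumor. Both genes were below the filter on low values in both tables. With a tumor both were highest in control replicate 2, the library where the monocyte and neutrophil transcripts described below were also highest. Ebi3 shares 270 exonic bases with the antisense gene Gm16712, which held 0 to 24 counts and 0.176 to 1.12 FPKM over the libraries, and since the strand setting is not given, reads of the pair cannot be told apart.

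Fgl2 (ENSMUSG00000039899, chromosome 5, 21372642 to 21378374, plus strand) stood at 7.26 and 6.14 FPKM in SRC-3KO tumor libraries, against 6.99 and 26.1 FPKM in tumor controls. Control replicate 2 alone was high. Its log2 fold change of -0.94 (SE 0.57, 95% interval -2.38 to 0.51, limma adjusted p = 0.449) was -0.06 without that library. With that library as the only control it was called lower at -1.82 (adjusted p = 0.0247, against 0.0247 to 0.996 over the alternatives), in a fit that called 3.68% of all genes. Without a tumor Fgl2 stood at 5.81 and 4.47 CPM in SRC-3KO Tregs, against 1.27 and 0 CPM in control, from 160 and 127 counts in SRC-3KO Tregs and 32 and 0 counts in control. Both SRC-3KO libraries were higher. The gene lies within Ccdc146, on the other strand, with 0 shared exonic bases. The 0 in control replicate 2 allows up to 3 counts (0.114 CPM, counting error only), and the SRC-3KO mean of 5.14 CPM was 44.9-fold that limit. This fold rests on 1 library and leaves out the spread between libraries. That library held the fewest genes above 0, 15333, against 17040 and 17915 in SRC-3KO Tregs and 23941 in the other control. The other control stood at 1.27 CPM of Fgl2. The fitted log2 fold change was 3.01 (SE 2.06, 95% interval -2.04 to 8.06, edgeR adjusted p = 0.910).

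**Figure D2:**
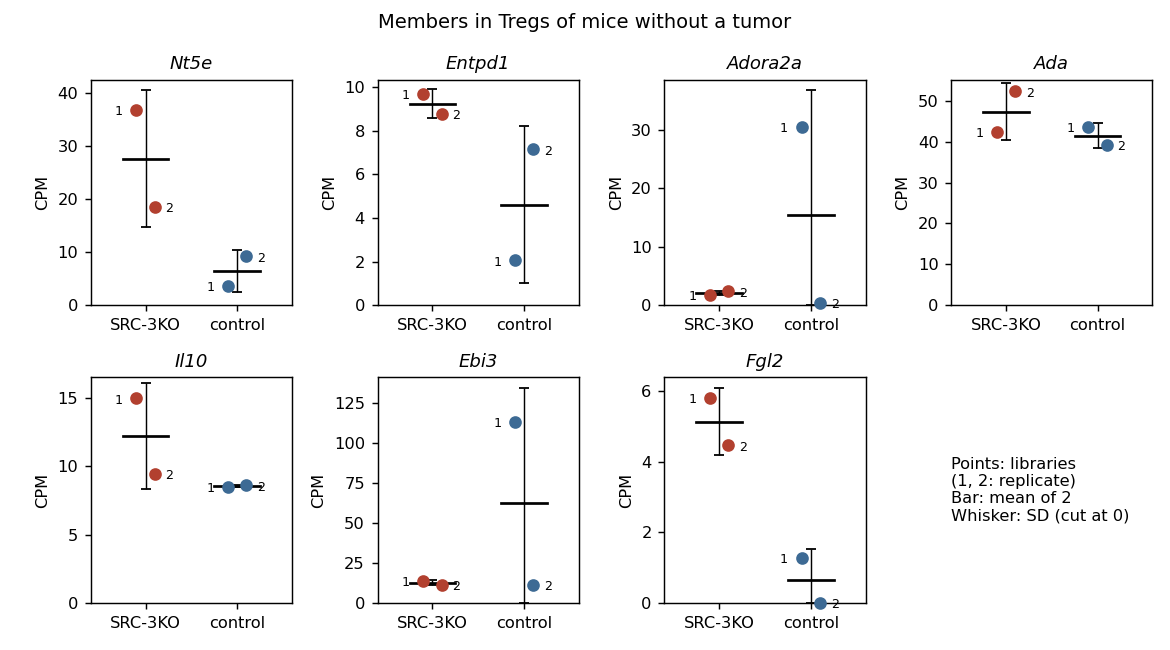
CPM of each member in the libraries without a tumor, SRC-3KO left and control right, with points numbered by replicate, bars at the mean of 2 and whiskers at the SD, cut at 0. Control replicate 1, the library titled WT, stands apart for Adora2a (30.5 CPM) and Ebi3 (113 CPM), and both SRC-3KO libraries lie above both controls for Nt5e, Entpd1, Il10 and Fgl2.

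Counted together, 2 of 7 members were higher in both SRC-3KO tumor libraries than in both control libraries, where 27.5% of all genes were. None was lower in both, against 24.9% of all genes. Without a tumor 4 of 7 were higher, against 23.8% of all genes, and 0 of 7 lower, against 16.9%. Per unit of the T cell sum, 2 of 7 (Nt5e and Fgl2) were higher without a tumor, against 5.96% of all genes. On that scale 2 of 7 were lower, against 39.5% of all genes: Ada at 4.80 and 6.08 in SRC-3KO Tregs, against 13.1 and 6.79 in control, and Ebi3 at 1.58 and 1.33 in SRC-3KO Tregs, against 33.8 and 1.95 in control, per 1000 units. By limma 0 of 7 members were called with a tumor, where 0.0156% of 12859 genes were called higher and 0.0933% lower. By edgeR 0 of 7 were called without a tumor, where 0% of 14860 genes were called higher and 0% lower and 3.18% had an unadjusted p under 0.05. No member was called by DESeq2 or limma-voom either. The median log2 fold change of the members was -0.07 with a tumor and 0.51 without one, and that of all genes -0.02 in both. Scaled to the T cell sum, the members' median without a tumor was -0.53, and that of all genes -1.06.

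**Figure D3:**
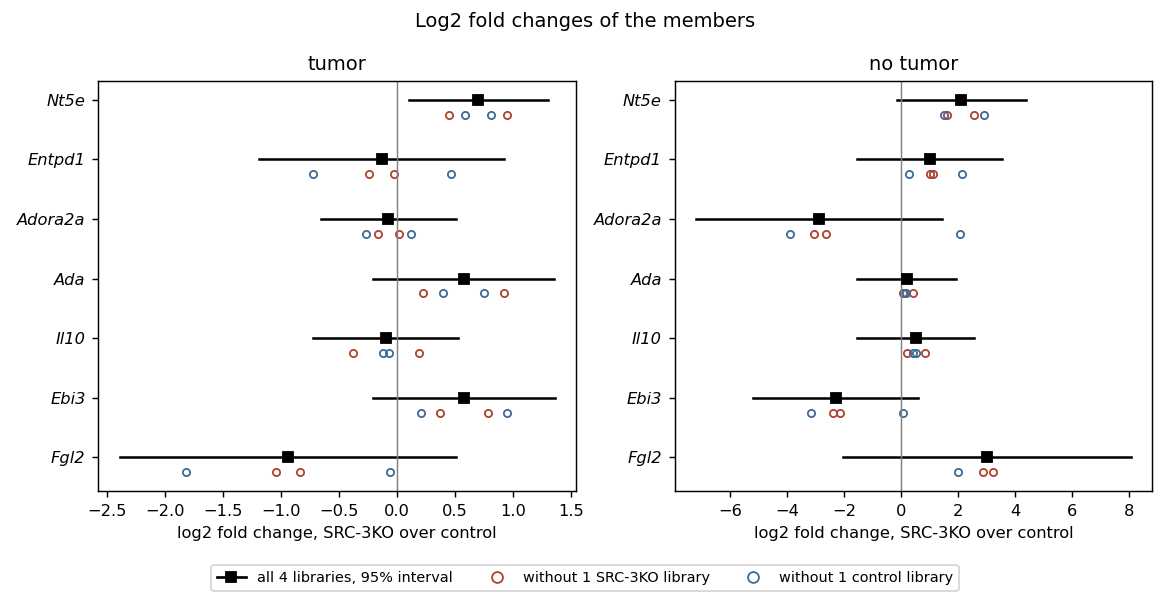
Log2 fold change of each member, SRC-3KO over control, with its 95% interval (squares and lines) and its value when 1 library is left out (open circles, red for an SRC-3KO and blue for a control library), tumor left and no tumor right on axes of different range. The Nt5e squares and circles all lie above 0, and those of Adora2a and Ebi3 without a tumor move to 2.07 and 0.07 without the library titled WT. The value of Fgl2 without that library is left out, since its only control stands at 0.

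Control tumor replicate 2, where Entpd1, Fgl2 and Adora2a were highest, held 1436 FPKM over 10 monocyte and macrophage genes. The SRC-3KO tumor libraries held 10.6 and 7.83 FPKM over this list, and tumor control replicate 1 held 8.28 FPKM, nearly all of it Cd68. All 10 genes of the list, Lyz2, Csf1r and Itgam among them, were highest in control replicate 2, and Fcgr1 was at 0 in the other 3 libraries. Over 7 neutrophil genes the SRC-3KO tumor libraries held 1.56 and 0 FPKM and the controls 3.46 and 3906 FPKM, with Mpo and Elane at 0 in all 4. Macrophages are known to express Fgl2 and Entpd1. The part of these cells in the values was not tested.

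Plasma cell transcripts were lower in both SRC-3KO tumor libraries. Summed over 7 genes they stood at 264 and 255 FPKM in SRC-3KO Tregs, against 1261 and 1958 FPKM in control. Most of the SRC-3KO sums was Xbp1, whose groups overlapped (241 and 213 FPKM, against 216 and 264 FPKM in control). The other 3 of the 4 tested (Jchain, Mzb1 and Igkc) fell. The 10 B cell genes summed to 13.0 and 10.9 FPKM in SRC-3KO Tregs, against 36.6 and 28.7 FPKM in control. Without a tumor the plasma cell genes summed to 900 and 512 CPM in SRC-3KO Tregs, against 88.7 and 1273 CPM in control, and the B cell genes to 65.8 and 22.5 CPM in SRC-3KO Tregs, against 20.5 and 14.5 CPM in control. B cells can carry CD73. The part of these cells in the values of the members was not tested.

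Treg transcripts were present in all 8 libraries. Foxp3 stood at 20.1 and 28.8 FPKM in SRC-3KO Tregs, against 18.4 and 14.7 FPKM in control with a tumor, and at 21.1 and 10.2 CPM in SRC-3KO Tregs, against 231 and 20.5 CPM in control without one. The 7 Treg genes summed to 3545 and 3588 FPKM in SRC-3KO Tregs and 3660 and 2515 FPKM in control with a tumor. Without a tumor they summed to 8672 and 9297 CPM in SRC-3KO Tregs and 2664 and 6629 CPM in control, so the library titled WT was lowest in this sum while highest in Foxp3. The same library was lowest in Nt5e and Entpd1 and highest in Adora2a and Ebi3. It held the most genes above 0 (23941, against 15333 to 17915). Its sum over 5 conventional CD4 T cell genes was highest (391 CPM, against 68.5 to 120 CPM). So was its sum over 7 CD8 T and NK cell genes (1339 CPM), nearly all from Nkg7 (1324 CPM, against 94.5 to 531 CPM). Of these lists Il7r, Dapl1, Il2, Cd8b1, Klrb1c, Ncr1 and Klrk1 were not highest there. The part of such cells in the values of the members was not tested. Without a tumor the monocyte and macrophage list summed to 29.0 and 88.7 CPM in SRC-3KO Tregs and 11.8 and 53.4 CPM in control, with Itgam, Fcgr1, C1qa and C1qb at 0 in all 4. The neutrophil list summed to 0.0363 and 0.0352 CPM in SRC-3KO Tregs and 0.0795 and 307 CPM in control. Ncoa3 stood at 47.5 and 27.7 FPKM in SRC-3KO Tregs, against 37.7 and 45.4 FPKM in control with a tumor, and at 39.6 and 26.7 CPM in SRC-3KO Tregs, against 132 and 54.1 CPM in control without one. Which exons were deleted was not given, so these values do not check the labels.

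**Figure D4:**
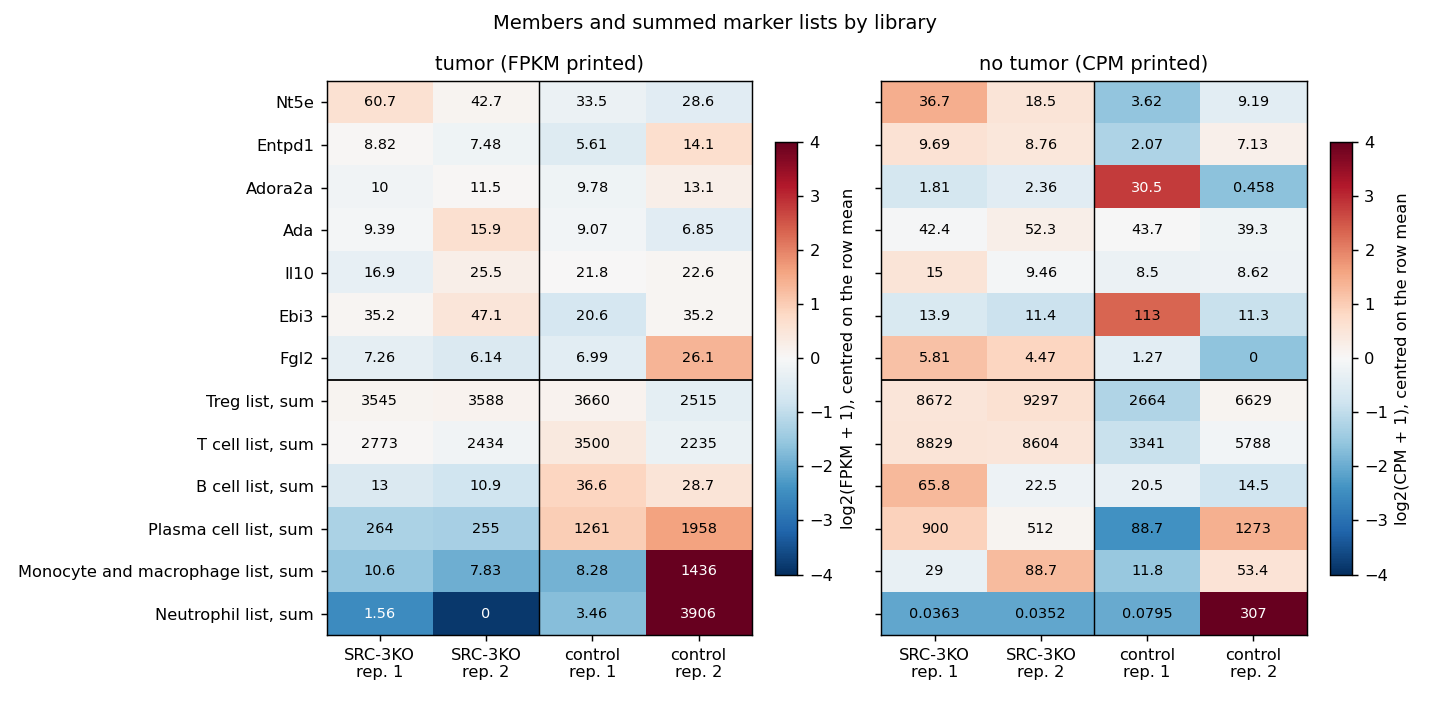
Values of the members (above the line) and sums of 6 marker lists (below it) in each library, FPKM with a tumor (left) and CPM without one (right), colored by log2(value + 1) centred on the row mean, SRC-3KO columns left of control. In control tumor replicate 2 the monocyte (1436 FPKM) and neutrophil (3906 FPKM) sums stand out together with Fgl2 (26.1 FPKM), and in control replicate 1 without a tumor Adora2a and Ebi3 stand out while the T cell sum is lowest (3341 CPM).

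Levels per length put CD73 high among the members with a tumor. In the SRC-3KO tumor libraries the order by mean FPKM was Nt5e, Ebi3, Il10, Ada, Adora2a, Entpd1 and Fgl2. Of the neighbours in that order, Nt5e and Ebi3 overlapped, as did Ada and Adora2a. In the tumor controls Nt5e, Ebi3 and Il10 were again the highest by mean, with Nt5e and Ebi3 overlapping and Ebi3 and Il10 overlapping. Without a tumor, in CPM per kilobase of merged exons, Ada (21.2 and 26.1), Ebi3 (12.1 and 9.90) and Il10 (11.4 and 7.22) were the highest in SRC-3KO, the last of these overlapping Ebi3. Nt5e stood at 4.27 and 2.15 CPM per kilobase in SRC-3KO and at 0.42 and 1.07 in control. Among the genes tested, Nt5e lay between percentiles 77.7 and 89.2 of level per length over the tumor libraries and between 16.5 and 55.5 over those without a tumor. The percentiles come from tables normalized separately, in which transcript lengths were also counted in different ways, and were not tested against each other.

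The rest of the adenosine pathway was read from lists of genes. Of 24 genes that supply or remove adenosine, 18 were tested with a tumor and 0 were called, with 3 higher and 3 lower in both SRC-3KO libraries, against 27.5% and 24.9% of all genes, and a median log2 fold change of -0.16. Dpp4 (CD26), which holds adenosine deaminase at the cell surface in humans, stood at 6.40 and 6.19 FPKM in SRC-3KO Tregs, against 2.6 and 3.23 FPKM in control (0.90, SE 0.23, limma adjusted p = 0.194). Adenosine kinase, Adk, which returns adenosine to AMP inside the cell, stood at 35.2 and 32.4 FPKM in SRC-3KO Tregs, against 64.7 and 45.1 FPKM in control (-0.66, SE 0.23, adjusted p = 0.268). The nucleotidase gene Nt5c2, which acts inside cells, had a log2 fold change of -0.60 (SE 0.20, adjusted p = 0.250). For these 3 genes the groups did not overlap.

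Of 25 genes of the other adenosine receptors, purine receptors and cAMP signalling, 19 were tested with a tumor and 0 were called. Higher in both SRC-3KO libraries were 12 and lower 2, against 27.5% and 24.9% of all genes, at a median of 0.34. Adcy7, an adenylate cyclase of immune cells that makes cAMP, stood at 15.3 and 16.1 FPKM in SRC-3KO Tregs, against 7.62 and 8.24 FPKM in control (0.90, SE 0.19, limma adjusted p = 0.161). P2rx7, a channel opened by extracellular ATP, stood at 14.3 and 10.4 FPKM in SRC-3KO Tregs, against 5.92 and 6.37 FPKM in control (0.88, SE 0.24, adjusted p = 0.209). It was higher in both SRC-3KO libraries without a tumor as well, at 7.58 and 11.2 CPM, against 2.15 and 0.534 CPM in control (2.81, SE 1.2, edgeR adjusted p = 0.910). P2ry10, a lipid receptor, had 0.70 (SE 0.17, limma adjusted p = 0.188) with a tumor. Of the other adenosine receptors, Adora1 was at 0 in all 8 libraries and Adora3 in 7. Adora2b stood at 0.770 and 0.711 FPKM in SRC-3KO Tregs, against 2.28 and 13.3 FPKM in control with a tumor, highest in the library with the monocyte transcripts.

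With a tumor, the 9 listed genes known to regulate Il10 in T cells had larger log2 fold changes than Il10 itself (-0.09). With the length and GC trend removed 7 of 9 did, Il10 being at 0.24, and without SRC-3KO replicate 1 8 of 9 did. All 9 had a log2 fold change above 0 (median 0.50), as did 6239 of all 12859 genes tested. Of the 9, 7 were higher in both SRC-3KO than in both control libraries, against 27.5% of all genes, though 0 were called. All 9 stayed above 0 without either control, under TPM scaling and when scaled to the T cell sum, and 8 did with the length and GC trend removed. Rora, a nuclear receptor found in tissue Tregs, stood at 22.0 and 20.2 FPKM in SRC-3KO Tregs, against 10.1 and 9.82 FPKM in control (1.01, SE 0.19, limma adjusted p = 0.144). Prdm1, which encodes the repressor Blimp-1 and is needed for IL-10 in effector Tregs, stood at 20.6 and 18.3 FPKM in SRC-3KO Tregs, against 9.75 and 10.5 FPKM in control (0.88, SE 0.19, adjusted p = 0.164). The AP-1 factor Batf stood at 352 and 421 FPKM in SRC-3KO Tregs, against 231 and 169 FPKM in control (0.96, SE 0.26, adjusted p = 0.209). In the same libraries 6 of 7 Treg genes had a log2 fold change above 0 (median 0.84) and 0 were called. Higher in both SRC-3KO libraries were 5 of them, against 27.5% of all genes, while the plasma cell and B cell sums were lower. The difference between Il10 and its regulators was not tested. The 9 genes do not all act on Il10 in the same direction, since Bhlhe40 restrains it in T cells.

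Without a tumor the same 9 regulators had a median of -1.29, with 2 above 0, where 7370 of all 14860 genes tested were. In both SRC-3KO libraries 0 were higher and 4 lower, against 23.8% and 16.9% of all genes. Bhlhe40, a factor that restrains Il10 in T cells, stood at 8.46 and 5.84 CPM in SRC-3KO Tregs, against 236 and 17.0 CPM in control (-4.15, SE 1.39, edgeR adjusted p = 0.910). Ahr and Gata3 had -2.69 (SE 1.16) and -1.71 (SE 0.92) with the same adjusted p of 0.910. The library titled WT held the highest value of each of these 3 genes. The median without that library was -0.59, with 3 of 9 above 0.

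Of 14 genes of IL-10 and IL-35 partners, receptors and their signalling, 12 were tested with a tumor, with 7 higher and 1 lower in both SRC-3KO libraries, against 27.5% and 24.9% of all genes, at a median of 0.44, and 0 were called. Il12rb2, a receptor chain for IL-12 that also serves IL-35, stood at 1.45 and 0.330 FPKM in SRC-3KO Tregs, against 5.03 and 8.51 FPKM in control (-2.07, SE 0.40, limma adjusted p = 0.151). Stat4 and Tyk2, which act downstream of such receptors, had 0.60 (SE 0.18, adjusted p = 0.228) and 0.69 (SE 0.21, adjusted p = 0.233). Without a tumor the list had a median of -1.37, and -0.11 without the library titled WT. There 5 genes were higher and 5 lower in both SRC-3KO libraries, against 23.8% and 16.9% of all genes. Il10ra, the ligand-binding chain of the IL-10 receptor, stood at 3.27 and 0.352 CPM in SRC-3KO Tregs, against 11.52 and 9.81 CPM in control (-2.56, SE 1.32, edgeR adjusted p = 0.910). Jak2 (-2.29, SE 1.12) and Il27ra (-1.45, SE 0.76) were lower in both SRC-3KO libraries too.

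Other suppressive effectors of Tregs were 12 genes, all tested with a tumor, of which 8 were higher and 3 lower in both SRC-3KO libraries, against 27.5% and 24.9% of all genes, at a median of 0.82, with 0 called. The growth factor gene Areg had 1.84 (SE 0.22, limma adjusted p = 0.0978), the TGF-beta activating integrin gene Itgb8 1.49 (SE 0.24, adjusted p = 0.125) and the perforin gene Prf1 -1.40 (SE 0.27, adjusted p = 0.151). Lag3, an inhibitory receptor that binds fibrinogen-like protein 1, was the only gene tested of 7 in the list of fibrinogen-like proteins and their receptors. It stood at 17.0 and 26.6 FPKM in SRC-3KO Tregs, against 8.77 and 11.4 FPKM in control (1.02, SE 0.28, adjusted p = 0.214). Fcgr2b, the inhibitory Fc receptor for Fgl2, stood at 0 and 0.0447 FPKM in SRC-3KO Tregs, against 0.172 and 66.7 FPKM in control with a tumor. The high value is that of control replicate 2, the library with the monocyte and neutrophil transcripts.

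Without a tumor 0 genes of any of these lists were called by edgeR. DESeq2 called Bhlhe40 (adjusted p = 0.0345) and Lgals3 (adjusted p = 0.0396) lower, and edgeR with no filter called Prf1 lower (adjusted p = 0.00623), all 3 highest in the library titled WT. The supply and removal list had a median of 0.57 over 18 genes, which was -0.30 when scaled to the T cell sum. In both SRC-3KO libraries 6 were higher (Entpd5, Adk, Pnp, Dpp4, Nt5c3 and Nt5c3b) and 4 lower, against 23.8% and 16.9% of all genes. Ampd2, an AMP deaminase of this list, stood at 12.4 and 8.79 CPM in SRC-3KO Tregs, against 91.5 and 22.6 CPM in control. Its log2 fold change was -2.43 (SE 0.96, edgeR adjusted p = 0.910). Slc29a2 (-3.01, SE 1.45), a nucleoside transporter, and Entpd7 (-1.53, SE 1.0) were lower in both SRC-3KO libraries too. The receptor and cAMP list had a median of -0.72 over 21 genes, and 0.52 without the library titled WT. In both SRC-3KO libraries 5 were higher (Prkar1a, Creb1, Crem, P2rx7 and P2ry10) and 2 lower, against the same shares of all genes. Pde3b, which breaks down cAMP, stood at 1.09 and 2.25 CPM in SRC-3KO Tregs, against 21.6 and 5.26 CPM in control (-3.0, SE 1.17). Crtc2, a coactivator of CREB, had -2.00 (SE 1.03). Of the 11 other effectors tested, 3 were higher and 1 lower in both SRC-3KO libraries, against 23.8% and 16.9% of all genes. Among them Lgals3 (-4.47, SE 1.75), Penk (-2.44, SE 1.31) and Tgfb1 (-2.10, SE 1.23) were highest in the library titled WT. Of the fibrinogen-like list, Lag3 (-2.10, SE 1.29) was highest there too, and Fcgr3 had 0.67 (SE 2.73).

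**Figure D5:**
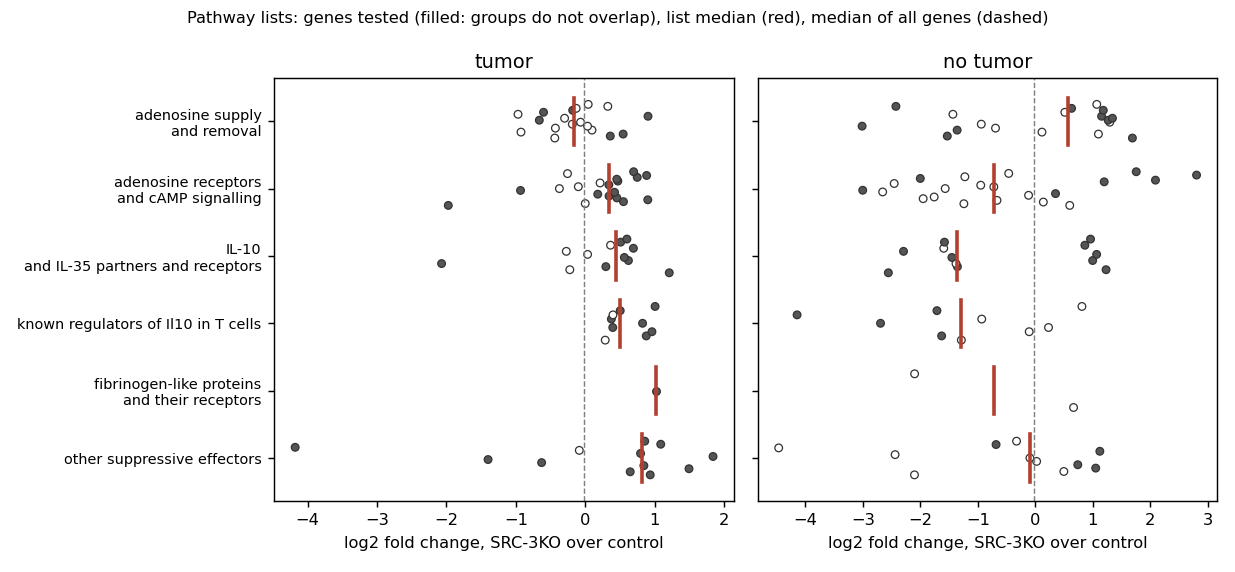
Log2 fold changes, SRC-3KO over control, of the genes tested in each pathway list with a tumor (left) and without one (right), filled where the groups do not overlap, with the list median in red and the median of all genes dashed. With a tumor all 9 known regulators of Il10 lie above 0 at a median of 0.50, and without one their median is -1.29.

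The genes whose pattern over the 8 libraries was most like that of a member were found among 11674 genes tested in both tables. The measure was the root mean square difference of log2(value + 1), centred within each table. Nearest to Nt5e was 2610008E11Rik, at a difference of 0.151 where the spread of Nt5e itself was 0.842. Nearest to Entpd1 was Rab18 (0.131, own spread 0.593), to Adora2a Crk (0.185, own spread 1.19) and to Ebi3 Atg2b (0.0918, own spread 1.0). Ada (Tpi-rs10, 0.141), Il10 (Sp3, 0.135) and Fgl2 (Mpp1, 0.337) had own spreads of 0.302, 0.262 and 0.953. These are descriptions: the libraries share their depth and cell content, and centring joins values from tables normalized separately.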

How the data were processed

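Splenic Tregs were profiled in 8 libraries. Per the submitters' processing notes, FastQC, Trim Galore, STAR, featureCounts and edgeR were used on build mm10, with no versions. The authors deposited raw featureCounts counts of the no-tumor libraries (totals of 24159217 to 31075452) and StringTie FPKM values of the tumor libraries, whose depth is unknown (per the file headers and names). Strand setting and annotation were not given in the sources used here.

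Groups came from the condition and tumor labels. The members and lists were chosen with earlier results of these data known. Counts were fitted with edgeR 4.0.16 (R 4.3.3): filterByExpr, TMM factors of 0.916 to 1.086, quasi-likelihood test, common dispersion 0.791. FPKM values were fitted as log2(FPKM + 1) with limma 3.58.1 and an intensity trend, leaving out genes that reached 1 FPKM in fewer than 2 libraries. This pseudocount understates changes of low genes. Only the 4 libraries of a comparison entered its fit, with no covariate. p-values were adjusted by Benjamini-Hochberg over all genes, threshold 0.05. Intervals are at 95%, CPM uses TMM library sizes. Named pathway genes are up to 3 per list with the smallest p. Other genes were named after their values were seen: Adora1, Adora2b, Adora3, Il12a, Il27, Fcgr2b and the overlapping Gm16712. Positions came from GENCODE vM21, to which 55141 IDs matched. The fits were tested on simulated data.

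The alternatives tried were limma-voom, DESeq2 1.42.0, other filters and scalings, a pseudocount of 0.1, removal of the trend with length and GC content, a replicate term, and leaving out each library. Scaling to the 7 summed T cell genes was chosen after seeing the data.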

Additional observations from a re-analysis of the deposited data

How the results depend on the processing

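With a tumor 14 genes were called. A pseudocount of 0.1 called 7, no filter 1, a minimum of 5 FPKM 30, median-of-ratios scaling 6, TPM scaling 4 and scaling to the T cell sum 5, the last chosen after seeing the data. Leaving out 1 library called 31 to 2510 genes and 0 to 1 members. Without a tumor 0 genes were called, with 86 by DESeq2 and 70 with no filter. Leaving out 1 library there called 0 to 7434 genes and 0 to 4 members, the most of both without control replicate 2. Where a group is left with 1 library, that library is assumed to vary like the others. No member was called under an alternative that kept all 4 libraries. The replicate numbers in the tumor titles share only a number (correlation of same-numbered deviations 0.0357 over 2 pairs). With them as a replicate block 72 genes were called and 0 members.

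Signs of members turned as follows. Without control replicate 1 and without a tumor, Adora2a was 2.07 and Ebi3 0.0664, and without control replicate 2 they were -3.89 and -3.17. Scaled to the T cell sum, Ada (-0.87) and Il10 (-0.53) turned without a tumor, and Adora2a (0.0194) and Il10 (0.00682) with one. TPM scaling gave Entpd1 0.10, Adora2a 0.16 and Il10 0.14 with a tumor, where it moved the median of all genes to 0.21. Removing the length and GC trend gave Il10 0.24. Leaving out a tumor library gave Entpd1 -0.73 to 0.46, Adora2a -0.27 to 0.12 and Il10 -0.38 to 0.19. The cause was not tested. The tumor table gives no depth, so no counting interval was possible there.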
